A study of Homo sapiens with 7 samples.

Results

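The genes described here are 10 genes of peptide signalling and regulated secretion: the peptide precursors NTS (neurotensin) and GAL (galanin), the neurotensin receptor NTSR1, the granin family genes VGF, CHGA, CHGB, SCG2 and SCG5, and the neuronal and endocrine markers ENO2 and SV2A. A probe set was taken when the array's annotation paired it with exactly 1 gene symbol and that symbol was among the 10. This gave 11 probe sets for the 10 genes, out of 54613 probe sets and 19775 genes tested, with GAL read by 2 probe sets and each other gene by 1. The genes had been chosen from earlier results on these same arrays, in which ENO2 differed between the arms, SV2A between the S100P clones, and NTS and GAL between the vector clones. Those 4 differences are therefore given as descriptions, with no p. The remaining values come from the same arrays, so none of them is independent of that choice.

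The samples were 7 Affymetrix arrays of the human pancreatic cancer cell line Panc1 after stable introduction of the plasmid pcDNA3.1 with S100P fused to a V5-His tag, or of the V5-His plasmid without S100P. The S100P arm held arrays a and b of clone 5 and arrays a and b of clone 1, and the vector arm held 1 array of clone V1 and arrays a and b of clone V3, all grown in the same serum-containing medium. S100P is a small calcium-binding protein, and the stated aim was to find genes that it regulates. Every clone was isolated from a single cell, so an arm of 2 clones also carries whatever distinguished those cells, and whether arrays a and b of a clone were separately grown is not stated. Values are log2 intensities, in which a difference of 1 is a doubling. They are compared across arrays and never between probe sets of different genes.

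Neuropeptides and granins are made as precursors, enter the regulated secretory pathway, are cut by prohormone convertases, and are released when dense-core granules fuse with the cell membrane. Neurotensin, a gut and brain peptide, signals through the G protein-coupled receptor NTSR1, which is known from pancreatic ductal cancer. Galanin is a neuropeptide of brain and gut. Granins such as chromogranin A (CHGA), chromogranin B (CHGB) and secretogranin II (SCG2) are packed in dense-core granules and are used as markers of neuroendocrine cells. ENO2 encodes neuron-specific enolase, a glycolytic enzyme, and SV2A a membrane glycoprotein of synaptic and endocrine vesicles.

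Several of these genes are textbook targets of cyclic AMP signalling, which acts through the CRE motif TGACGTCA, so the upstream windows of 4 members are shown because they hold that motif, a variant of it, or the AP-1 motif TGANTCA. The windows are from RefSeq on build GRCh38.p14, run 5′ to 3′ on the gene's strand from 250 bases before to 50 bases after an annotated start, and carry the motif in capitals. The CRE motif lies 79 bases before the start of VGF and 54 bases before that of CHGA, TGACATCA lies 51 bases before that of NTS, and the AP-1 match TGACTCA lies 94 bases before that of ENO2. The CHGA and VGF windows lie inside the annotated gene, at one of its starts.
NTS, chr12:85874045-85874344, plus strand: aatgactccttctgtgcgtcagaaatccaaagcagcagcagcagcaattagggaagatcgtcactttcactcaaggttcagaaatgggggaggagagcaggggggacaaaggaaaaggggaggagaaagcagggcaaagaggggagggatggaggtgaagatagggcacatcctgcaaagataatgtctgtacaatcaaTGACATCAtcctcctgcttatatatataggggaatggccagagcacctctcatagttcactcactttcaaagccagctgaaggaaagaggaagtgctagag
VGF, chr7:101165520-101165819, minus strand: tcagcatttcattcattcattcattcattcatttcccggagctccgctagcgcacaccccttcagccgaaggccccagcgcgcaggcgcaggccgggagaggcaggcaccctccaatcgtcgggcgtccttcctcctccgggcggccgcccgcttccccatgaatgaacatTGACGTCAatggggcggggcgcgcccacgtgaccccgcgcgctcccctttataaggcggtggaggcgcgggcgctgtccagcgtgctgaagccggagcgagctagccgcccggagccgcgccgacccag
CHGA, chr14:92922900-92923199, plus strand: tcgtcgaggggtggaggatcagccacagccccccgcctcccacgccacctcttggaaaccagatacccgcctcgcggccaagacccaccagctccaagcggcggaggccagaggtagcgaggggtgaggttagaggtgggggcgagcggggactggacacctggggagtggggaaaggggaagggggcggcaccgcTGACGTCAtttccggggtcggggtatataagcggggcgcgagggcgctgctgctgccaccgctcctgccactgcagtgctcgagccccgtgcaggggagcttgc
ENO2, chr12:6914330-6914629, plus strand: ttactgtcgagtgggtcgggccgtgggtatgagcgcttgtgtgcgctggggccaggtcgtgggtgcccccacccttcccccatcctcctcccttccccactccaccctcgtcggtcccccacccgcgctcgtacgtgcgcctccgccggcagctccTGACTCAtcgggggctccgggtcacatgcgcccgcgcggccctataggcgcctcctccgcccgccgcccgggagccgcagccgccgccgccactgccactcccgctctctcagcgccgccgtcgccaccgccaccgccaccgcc
Over 35116 such windows, searched on both strands, 1.85% held TGACGTCA, 7.72% held TGACNTCA, which includes TGACGTCA, and 7.71% held TGANTCA. The table of windows matched 7 of the 10 members. Those of NTSR1, SCG5 and SV2A held none of these 3 motifs. The SV2A window (chr1:149906942-149907241, minus strand) lies inside the annotated gene, so the bases before the gene's 5′ end were not searched. The match is a description of the letters and not a binding site.

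S100P was read by 1 probe set, which did not separate the arms. It read 5.36 and 5.45 on clone 5 and 5.80 and 5.95 on clone 1, against 4.65 on V1 and 5.65 and 6.01 on V3. The fitted difference was 0.27 (SE 0.32, limma adjusted p = 0.846), so the arms below rest on the labels. Whether this probe set reads the transcript of the introduced S100P is not settled by these data, so its values do not show whether the clones overexpress it. The V1 array carries another prefix in its label than the other arrays, and it stood farthest from them: the lowest correlation between arrays, 0.982, was between array a of clone 1 and V1, against 0.996 to 0.998 within a clone. With 1 array of V1, the clone and any separate handling cannot be told apart. Array medians were 4.51 to 4.58. The 3′ minus 5′ reading of the ACTB controls, a measure of RNA integrity, was 0.29 and 0.27 on clone 5 and 0.53 and 0.44 on clone 1. It was 0.18 to 0.32 in the vector arm, and its part in any result was not tested. Of the ductal and epithelial markers 9 were measured, with a mean of 8.83 to 9.15 in the S100P arm and 8.68 to 9.23 in the vector arm. Behind that mean the markers went both ways between the arms: CDH1 differed by 2.23 (limma adjusted p = 0.133) and SOX9 by 0.91 (limma adjusted p = 0.0549), but KRT8 by -0.95 (limma adjusted p = 0.346) and KRT7 by -0.87 (limma adjusted p = 0.0667), and 0 of 9 passed. Of the neuroendocrine markers, INSM1, a transcription factor of neuroendocrine cells, was below the array median on all 7 arrays (2.75 to 2.82) and CHGA on 6, while SYP, a vesicle protein, was above it on all 7 (5.51 to 6.34). Acinar, fibroblast, leukocyte and endothelial marker lists had means of 3.25 to 4.77 over all arrays. The fibroblast-list marker THY1 did not pass between the arms at its brightest probe set (0.59, limma adjusted p = 0.274), but its other probe sets, like ENO2 and CHGB, were higher in the S100P arm (0.89 with limma adjusted p = 0.0339, and 0.86 with limma adjusted p = 0.0341). In these RNA pools, fewer cells with a transcript and less of it per cell cannot be told apart.

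NTS (chr12:85874295-85882992) had the widest spread of the 10 genes (gene positions are those of RefSeq on GRCh38.p14). It read 4.74 and 4.74 on clone 5 and 3.29 and 3.92 on clone 1, against 3.12 on V1 and 6.27 and 6.40 on V3. V3 was highest, clone 5 lay between, and clone 1 and V1 were both below the array median, so the arms overlapped and each arm held 1 higher and 1 lower clone. V1 minus V3 was -3.21 (SE 0.23), a 9.23-fold lower reading in V1. Clone 5 was 2.21-fold higher than clone 1, a difference of 1.14 (SE 0.19, limma adjusted p = 0.0335). The arrays of clone 5 held an identical deposited value, as 6.55% of all probe sets did on this pair. Clone 5 therefore added no spread of its own to that SE. Background correction compresses dim probe sets, so folds against clone 1 and V1 are those of the deposited values.

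GAL (chr11:68684544-68691175) was highest in the vector clone in which NTS was lowest. Its brighter probe set read 6.16 and 6.37 on clone 5 and 5.80 and 6.07 on clone 1, against 8.07 on V1 and 6.09 and 6.26 on V3. The other 6 arrays lay within 5.80 to 6.37, with V1 alone above them, and the arms overlapped. V1 minus V3 was 1.89 (SE 0.16), a 3.71-fold higher reading in V1. The dimmer GAL probe set, below the array median on all 7 arrays, read 3.12, 3.12, 2.97 and 3.04 in the S100P arm, against 3.48 on V1 and 3.12 and 3.14 on V3. V1 was again the highest array, but its difference from V3 of 0.35 did not pass (SE 0.10, limma adjusted p = 0.114).

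NTSR1 (chr20:62708836-62762771), the receptor for neurotensin, varied far less than its ligand. It read 7.88 and 8.17 on clone 5 and 7.81 and 7.90 on clone 1, against 7.76 on V1 and 7.71 and 7.76 on V3. All 4 S100P arrays were above all 3 vector arrays, by a margin of a few hundredths at the closest. The fitted difference of 0.20 did not pass (SE 0.11, limma adjusted p = 0.584), and none of the clone contrasts did. NTSR1, VGF and CHGA were read by probe sets of a kind that can also pick up near-identical transcripts.

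**Figure D1:**
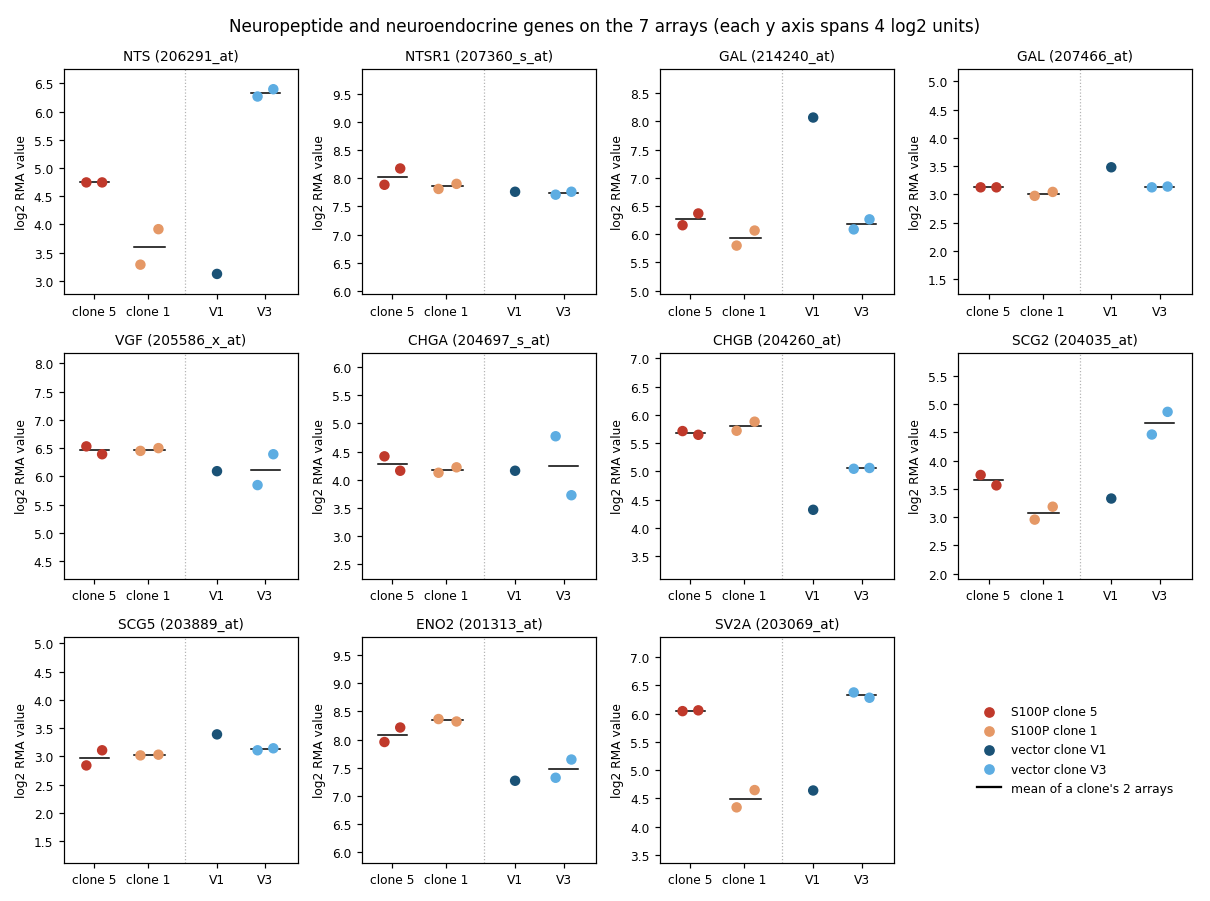
Deposited log2 value of each member probe set on each of the 7 arrays, with the S100P clones 5 and 1 left of the vector clones V1 and V3. Every panel spans 4 log2 units. NTS ranges from 3.12 on V1 to 6.40 on V3, GAL stands out at 8.07 on V1, and the 4 S100P arrays of ENO2 and CHGB lie above all 3 vector arrays.

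CHGB (chr20:5911510-5925353) was the granin gene whose arms stood apart. It read 5.71 and 5.65 on clone 5 and 5.72 and 5.88 on clone 1, against 4.32 on V1 and 5.05 and 5.06 on V3. The S100P arrays averaged 5.74 ± 0.10 (SD, n = 4) and the vector arrays 4.81 ± 0.42 (SD, n = 3), with no overlap. The fitted difference of 0.97, a 1.97-fold higher reading, narrowly missed the threshold (SE 0.19, limma adjusted p = 0.0575). The vector clones differed from each other as well, V1 being 1.66-fold lower than V3 (-0.73, SE 0.12, limma adjusted p = 0.0166). Without V1 the arm difference was smaller, 0.69, but passed (limma adjusted p = 0.00978), and over all 15 alternatives the adjusted p ran up to 0.488.

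SCG2 (chr2:223596940-223602361), the precursor of the peptide secretoneurin, followed the order of NTS in the vector clones. It read 3.75 and 3.56 on clone 5 and 2.95 and 3.18 on clone 1, against 3.33 on V1 and 4.46 and 4.86 on V3. V3 was above every other array, while V1 lay among the S100P arrays. V1 was 2.52-fold lower than V3 (-1.33, SE 0.19, limma adjusted p = 0.0117), whereas clone 5 minus clone 1 was 0.58 and did not pass (SE 0.16, limma adjusted p = 0.124). All arrays but array b of V3 were below their median for this probe set.

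The other granin genes showed no called difference. VGF (chr7:101162509-101169952), a neurotrophin-inducible secretory protein, read 6.53 and 6.39 on clone 5 and 6.45 and 6.50 on clone 1, against 6.09 on V1 and 5.84 and 6.39 on V3. The arms touched at 6.39, and the arm difference was 0.36 (SE 0.16, limma adjusted p = 0.418). CHGA (chr14:92922664-92935285) read 4.41 and 4.16 on clone 5 and 4.12 and 4.22 on clone 1, against 4.16 on V1 and 4.77 and 3.73 on V3. Its highest and lowest arrays were the pair from V3, 1.04 apart, while its clone means spanned only 0.13, so CHGA varied within a clone and not between clones. SCG5 (chr15:32641710-32697092), which encodes the convertase chaperone 7B2, read 2.84 to 3.11 in the S100P arm and 3.11 to 3.39 in the vector arm, below the median on every array. VGF and CHGA are the members whose printed windows hold the CRE motif.

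ENO2 (chr12:6914580-6923697) stood apart between the arms, the difference for which it had been chosen. It read 7.96 and 8.21 on clone 5 and 8.36 and 8.32 on clone 1, against 7.27 on V1 and 7.32 and 7.65 on V3. The S100P arrays averaged 8.21 ± 0.18 (SD, n = 4) and the vector arrays 7.41 ± 0.20 (SD, n = 3), with no overlap. The fitted difference was 0.81 (SE 0.15), a 1.76-fold higher reading. Both S100P clones were above both vector clones, the gap between clone 5 and clone 1 being -0.26 and that between V1 and V3 -0.21. The difference lay between 0.65 and 0.94 in all 15 alternatives. ENO2 is the member whose printed window holds the AP-1 match.

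SV2A (chr1:149903318-149917844) again split each arm by clone. It read 6.04 and 6.06 on clone 5 and 4.34 and 4.65 on clone 1, against 4.64 on V1 and 6.38 and 6.28 on V3. Clone 5 and V3 were high and clone 1 and V1 low, so each arm held a high and a low clone. Clone 5 minus clone 1 was 1.56 (SE 0.12), a 2.95-fold higher reading in clone 5. V1 was 3.23-fold lower than V3 (-1.69, SE 0.15, limma adjusted p = 0.00231). The arm difference was -0.39 (SE 0.56, limma adjusted p = 0.881).

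Between the arms, 1 of 11 member probe sets was called at an adjusted p of 0.05, against 1.12% of all probe sets, and it was higher, against 0.776% of all called higher. It was ENO2, chosen for that difference, so nothing is read from the count. ENO2 missed the threshold in 10 of 15 alternatives: with clone averages, an intensity trend or a mean of at least 5, without array a or b of clone 1, array b of clone 5 or array a or b of V3, and without clone 1 or clone V3. In 3 of 11, ENO2, CHGB and NTSR1, the arrays of the arms did not overlap, against 11.4% of all probe sets. ENO2 had been chosen for its arm difference, so nothing is read from that share either. The vector clones decided several arm values. Without V1, 4 of 11 were called (ENO2, CHGB, NTS and SCG2), against 3.13% of all. NTS was then at -2.16 and SCG2 at -1.30 (limma adjusted p = 0.0337, up to 0.99 over 14 alternatives). Without V3, 2 of 11 were called (CHGB at 1.42 and GAL at -1.97), against 3.07% of all, and NTS turned to 1.05. NTS and GAL had been chosen for the gap between V1 and V3, so their values in both settings are descriptions. The call of ENO2 without V1 is likewise a description. With all arrays NTS was -0.90 (SE 0.80, limma adjusted p = 0.774), GAL -0.82 (SE 0.45, limma adjusted p = 0.56) and SCG2 -0.78 (SE 0.37, limma adjusted p = 0.463).

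Within the S100P arm, clone 5 minus clone 1 called 2 of 11, NTS and SV2A, against 2.19% of all probe sets, both higher, against 0.584% of all. Within the vector arm, V1 minus V3 called 5 of 11, against 5.85% of all probe sets. GAL was higher, against 2.57% of all called higher, and NTS, SV2A, SCG2 and CHGB were lower, against 3.28% of all called lower. These shares include the differences for which the genes had been chosen, so nothing is read from their excess. The calls of both contrasts, over the whole array, rest on few arrays. Without any 1 array of clone 5, clone 1 or V3, clone 5 minus clone 1 called 0 members and 0 of all 54613 probe sets, while NTS lay between 0.83 and 1.46 and SV2A between 1.41 and 1.71. V1 minus V3 called 0 members and 0 of all probe sets without array a or b of clone 1 or of V3. Without array a or b of clone 5 it called 3 members (GAL, NTS and SV2A), against 1.66% of all in either case. NTS and SV2A each differed between the clones of both arms, with clone 5 above clone 1 and V1 below V3. The clones of one arm have no counterparts in the other. Some markers of other lists differed between the same clones. Of the 9 ductal and epithelial markers, KRT8, KRT18 and KRT19 were called higher in clone 5 than in clone 1 and 0 were called lower, though EPCAM was at -0.43 (limma adjusted p = 0.0791), CDH1 at -0.36 (limma adjusted p = 0.151), CFTR at -0.20 and SOX9 at -0.16. In V1 minus V3, KRT8, KRT19 and CDH1 were called lower and 0 higher, with SOX9 at 0.54 (limma adjusted p = 0.104). The leukocyte-list marker CD14 was called higher in clone 5 than in clone 1 (0.74, limma adjusted p = 0.0156), and its V1 minus V3 of -0.50 did not pass. THY1 was called higher in V1 than in V3 only at its brightest probe set (0.68). Its other probe sets gave 0.14 and 0.19. The part of these markers in the secretory genes' values was not tested.

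**Figure D2:**
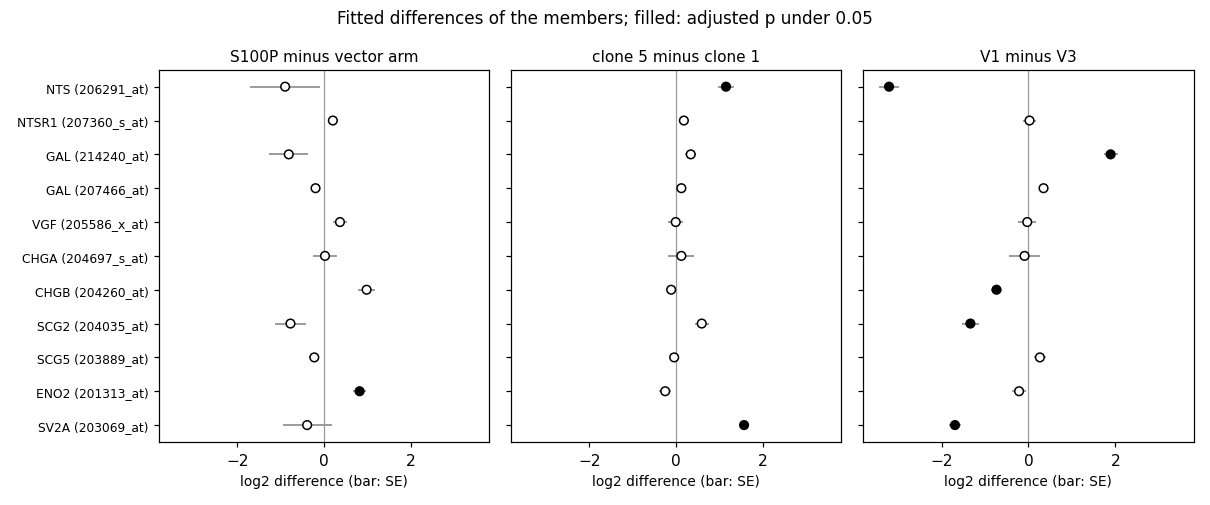
Fitted log2 differences of the 11 member probe sets in the comparison of arms and in both clone contrasts, with their standard errors, filled where the limma adjusted p was under 0.05. NTS reaches -3.21 and GAL 1.89 in V1 minus V3, and the arm difference of ENO2 is 0.81.

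By the medians, the clone means of the members lay farther apart than the arrays of 1 clone. These means come from the clones of both arms, so their span includes any difference between the arms and is not a measure of clones alone. For ENO2 the arm difference was 0.81, against -0.26 for clone 5 minus clone 1 and -0.21 for V1 minus V3. For SV2A the same values were -0.39, 1.56 and -1.69. The highest minus the lowest clone mean had a median of 1.07 over the 11 member probe sets, against 0.282 over all probe sets. The largest gap between arrays of 1 clone had a median of 0.306, against 0.229. The clone means spanned at least 1 in 6 of 11 members (54.5%: NTS, GAL, SV2A, SCG2, CHGB and ENO2) and in 5.65% of all probe sets, a description, since wide differences chose several of them.

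Few other genes of the secretory pathway passed the test, and many of those listed read below the array medians. VIP, a peptide precursor, averaged 2.59 in the S100P arm and 2.63 in the vector arm. How far dim signal limited the calls was not tested. Outside the members, 120 of 130 listed genes were measured: granins, prohormone processing enzymes, peptide precursors, peptide receptors, vesicle docking and exocytosis genes, and neuroendocrine transcription factors and markers. Between the arms limma called 0 of the 120, against 1.55% of all genes, and 10 had an unadjusted p under 0.05, against 15.1% of all genes. The list's median difference was -0.03, against 0.00 over all genes. Values that did not pass included 1.51 for the synaptic calcium sensor SYT1 (SE 0.39, limma adjusted p = 0.136) and 0.94 for UCN, the precursor of urocortin (SE 0.21, limma adjusted p = 0.0867). The neuronal ubiquitin hydrolase UCHL1 was at 0.34 (limma adjusted p = 0.511). In the other direction, CADPS2 of the exocytosis list was at -1.15 (SE 0.34, limma adjusted p = 0.2), the lowest of the 120. The processing enzyme PCSK7 was at -0.36 (SE 0.13, limma adjusted p = 0.296). Without V1, 1 of the 120 (SYT1) was called, against 3.91% of all genes, and without clone V3, 5 were, against 4.52%. The carboxypeptidase CPD did not pass at its brightest probe set, but another of its probe sets did (-0.61, limma adjusted p = 0.0377).

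Between clone 5 and clone 1, 1 of the 120 was called, against 3.02% of all genes (0.673% higher and 2.35% lower). It was ADM, the precursor of the vasodilator adrenomedullin. ADM read 12.07 and 12.12 on clone 5 and 13.12 and 13.12 on clone 1, against 11.60 on V1 and 12.00 and 12.12 on V3. Clone 1 stood above every other array, and clone 5 minus clone 1 was -1.02 (SE 0.09, limma adjusted p = 0.00418), a call lost, with all others on the array, without any 1 array of clone 5, clone 1 or V3. The list's median was 0.05, against 0.02 over all genes.

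Between V1 and V3, 5 of the 120 were called, against 7.72% of all genes, 1 higher (2.64% of all) and 4 lower (5.08% of all). SYT1 read 7.02 and 7.17 on clone 5 and 7.27 and 7.01 on clone 1, against 4.63 on V1 and 6.09 and 6.38 on V3. V1 was lowest and V3 next, below all S100P arrays, and V1 minus V3 was -1.61 (limma adjusted p = 0.00461), while a dimmer SYT1 probe set gave -0.84 and did not pass (limma adjusted p = 0.114). The adhesion molecule L1CAM (-0.90), the vesicle GTPase RAB3D (-0.73) and the carboxypeptidase CPD (-0.66) were also lower, each with other probe sets that did not pass. The neuronal tubulin TUBB3 was higher (0.74, limma adjusted p = 0.0341), and its other probe set gave 0.68 (limma adjusted p = 0.0484). None of the 5 was called once an array of clone 5, clone 1 or V3 was left out, settings that left 0 or 909 probe sets called on the whole array. The list's median was 0.04, against 0.02 over all genes.

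**Figure D3:**
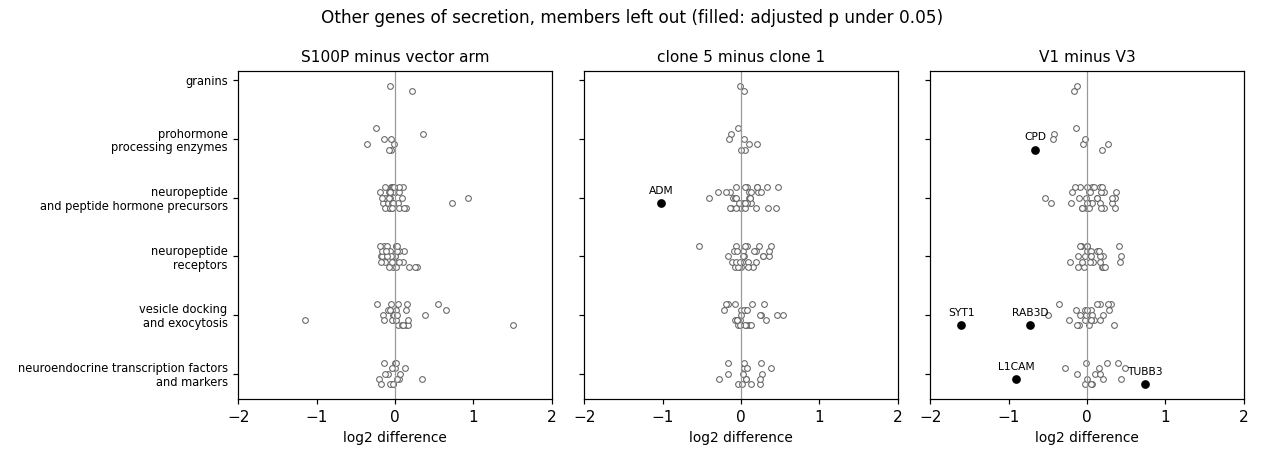
Fitted log2 differences of the 120 measured secretory-pathway genes outside the members, by list, in the comparison of arms and in both clone contrasts. Most points lie near 0, and the called ones are ADM in clone 5 minus clone 1 and SYT1, L1CAM, RAB3D, CPD and TUBB3 in V1 minus V3.

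Likeness of pattern was measured as the distance between centred log2 values over the 7 arrays, among 1971 genes that ranged over at least 1 log2 unit, and it describes these arrays only. The values were not scaled, so a distance also depends on how widely a gene varied. NTS ranged over 3.27, CHGB over 1.56 and ENO2 over 1.09. Nearest to NTS were RGS2 (0.766), BCAT1 (1.00) and GJB6 (1.13). Nearest to GAL were MCM10 (0.535), PLK1 (0.610) and ZSCAN5A (0.629). Those to CHGB were much closer: FBLL1 (0.178), PCAT6 (0.199) and TTLL1 (0.201). ENO2 likewise had GNAZ (0.132), PRRX2 (0.194) and TMEM223 (0.211). For SCG2 they were GNG4 (0.405), SLC4A11 (0.414) and BCL2L11 (0.496), and for CHGA PAXIP1-AS2 (0.565), OR10A5 (0.627) and NIM1K (0.681). The nearest to SV2A were the keratin KRT19 (0.974), SPARC (1.12) and the keratin KRT8 (1.16). Among the members, CHGB and ENO2 lay 0.591 apart and SCG2 and SV2A 1.19, while NTS lay 1.55 from SV2A, 1.70 from SCG2 and 4.28 from GAL.

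**Figure D4:**
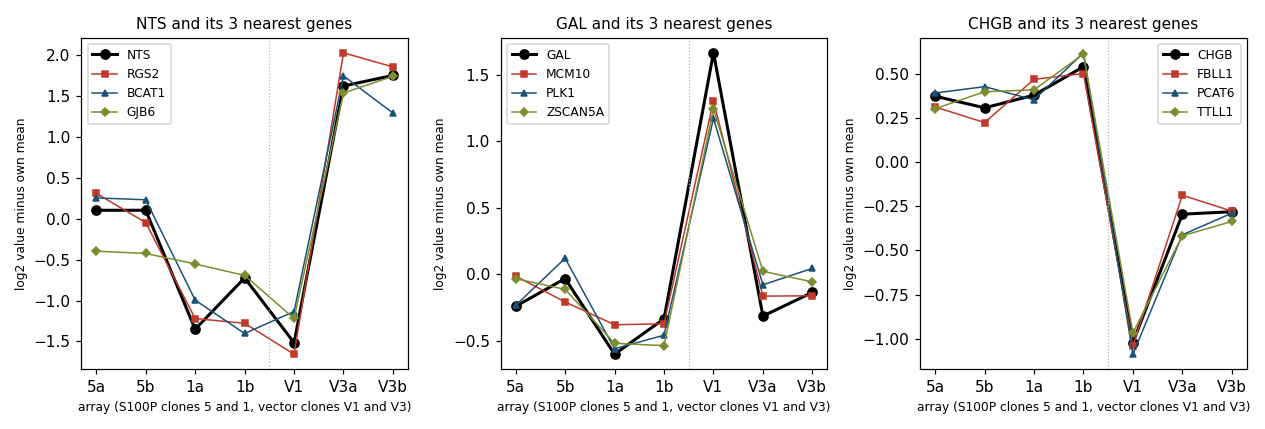
Centred log2 values over the 7 arrays of NTS, GAL and CHGB, each with its 3 nearest genes by distance. The nearest are RGS2 to NTS (0.766), MCM10 to GAL (0.535) and FBLL1 to CHGB (0.178).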

How the data were processed

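RNA of 7 arrays, 4 labelled S100P overexpressing and 3 vector, was analysed from the deposited log2 values, which the authors made with RMA per the submitters' processing notes. Neither the version of RMA nor joint processing of the arrays is stated there. RMA corrects background, normalizes between arrays and compresses differences of dim probe sets. Scanner files and detection calls were not used here, and precision is limited by how few arrays there are. Of 54675 probe sets, 62 controls were left out, and of the 54613 tested, 41091 had 1 gene symbol, 1801 several and 11721 none. For a gene with several probe sets, the one of highest mean stood for it.

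The arms were compared in R 4.3.3 with limma 3.58.1 (statmod 1.5.0) over all probe sets, with the clone as a random block (consensus correlation 0.287). The clone contrasts were fitted apart in limma, each of the 4 clones being a fixed effect, with 3 residual degrees of freedom, in which V1 is assumed to vary like the other clones. P-values were two-sided and adjusted by Benjamini-Hochberg over all probe sets, with a threshold of 0.05. In the comparison of arms they reflect how these arrays and clones vary. In the clone contrasts they rest only on the spread between arrays of the same clone. Either spread may be technical in part. Alternatives were no clone block, clone averages, an intensity trend, quantile normalization, a mean of at least 5, the array letter as a block, and leaving out each array or clone. Figures used matplotlib 3.10.9.

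The members and gene lists were chosen with earlier results of these data known. Named genes were all members, up to 3 called genes per direction of each list and contrast, or else the 1 of largest difference, and the 3 nearest genes of each member that ranged over at least 1 log2 unit. CADPS2 was named as the list gene of lowest arm difference.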

Additional observations from a re-analysis of the deposited data

Results flagged for a closer look

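For NTS and SV2A, the clones that share the S100P label differed from each other in the test of clone 5 minus clone 1, so their differences from the vector arm differed by the same amount. NTS was higher in clone 5 than in clone 1 by 1.14 on the log2 scale. SV2A was higher in clone 5 than in clone 1 by 1.56 on the log2 scale, and it is one of the genes chosen for that difference.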

How the results depend on the processing

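Of 147 recomputed member differences over 13 results, 92 kept their direction and side of the threshold, 46 kept the direction but no longer passed, 7 passed where the full fit did not, and 2 changed sign. Both sign changes were in the comparison of arms without clone V3, with NTS at 1.05 and SCG2 at 0.033. Leaving out V1 cannot change clone 5 minus clone 1, since V1 is the only array of its clone. Those unchanged values are among the 92. That setting alone gave the upper counts for clone 5 minus clone 1 when single arrays were left out. Of the 11 member probe sets, the arms differed in 1, with 611 called over the whole array. That count was 2 with no clone block (1103 over the array), 0 with clone averages (8), 0 with an intensity trend (542), 0 without clone 1 (678), 2 without clone V3 (1675), and 0 to 4 when single arrays were left out (159 to 1708). For the 120 other secretory genes the arms' count of 0 became 1 with no clone block, 2 without clone 5 (1355 over the array), 5 without clone V3, and 0 to 1 without single arrays. With a mean of at least 5, which removes NTS and SCG2 from the test, clone 5 minus clone 1 called 1 member and 2 list genes, and V1 minus V3 called 3 members and 8 list genes, with 2653 and 5053 probe sets called over the array, against 1195 and 3195 otherwise. Leaving out single arrays, clone 5 minus clone 1 called 0 to 2 members and 0 to 1 list genes, and V1 minus V3 called 0 to 3 members and 0 to 0 list genes, with fewer residual degrees of freedom and, in most of these settings, 0 calls over the whole array. The array letters did not pair the arrays, since differences of a minus b correlated at 0.05, 0.06 and -0.08 between clones, and with the letter as a replicate block clone 5 minus clone 1 called 2 members and 1 list gene, as without it. For other changes the cause was not tested. Dim probe sets limit the precision of NTS, SCG2 and SV2A in clone 1 and V1.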
